A study of Mus musculus with 7 samples.

Results

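The expression of 8 genes of blood vessel endothelium was followed in single-cell RNA sequencing of the mouse pancreas: Pecam1, Cdh5, Kdr, Flt1, Plvap, Emcn, Esam and Fabp4. They were chosen by name as known genes of the cells that line blood vessels, and their rows were read in each of the 3 deposited count tables, per mouse and per cell label. The 8 genes are 8 of 33864 genes listed in the tables, and all 8 are among the 25469 genes listed in every table. Values are counts of unique molecular identifiers (UMIs), each of which stands for 1 captured mRNA molecule, and levels are given as CPM, the UMIs of a gene per 1000000 UMIs of the same sum of cells. Reads were taken from the 3′ ends of transcripts, so levels were compared between samples and cell types and not between genes.

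Pancreata came from 7 C57BL/6 mice aged 2 months, and each mouse gave 1 library. The WT group (2 mice) was wild type and the i4F group (3 mice, genotype i4F-B) carried an inducible cassette for the reprogramming factors Oct4, Sox2, Klf4 and c-Myc (OSKM), and both groups drank doxycycline at 1 mg/ml with 7.5% sucrose for 7 days. The caerulein group (2 mice) was wild type and received caerulein, a cholecystokinin analogue that causes a mild acute pancreatitis, at 100 µg/kg in 7 hourly injections a day on 2 consecutive days, with no doxycycline in its labels. In the i4F-B strain the cassette is driven in all tissues, sits within the Pparg gene and is carried in the heterozygous state with the transactivator at Rosa26. By the series' design the i4F pancreas was set against the WT pancreas and against the pancreas damaged by caerulein, and the WT mice, which drank doxycycline, differed from the caerulein mice in that too, by the labels. Cells were obtained by enzymatic digestion, so every share below is a share of recovered cells.

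The libraries held 4327 to 15138 cells and 15469018 to 64784216 UMIs, 58473 cells in all, of which 4592 carried an endothelial label. Between 3 and 39 cell barcodes were shared by any pair of libraries, and at most 1 of them was labelled endothelial in both. The library names begin with 1 of 2 codes, one for WT 1 and the i4F mice and the other for WT 2 and the caerulein mice, so that each treated group shares a code with a single WT mouse. The authors clustered and named the cells of each group separately. WT endothelium was split into Endothelial_1 and Endothelial_2, with a separate cluster named Lymph_nodes (38 and 50 cells), whereas i4F and caerulein each had 1 endothelial cluster. The mouse i4F 3 stood apart from i4F 1 and i4F 2 in composition and depth. It had 664 endothelial cells against 311 and 447, 480 macrophages against 3495 and 3257, 1280 stellate cells against 4393 and 2681 and 1357 B cells against 477 and 370, and a median of 1248.5 UMIs per cell against 4247 and 2512.5. The calls of the 8 genes and of the listed genes in i4F mice are given with and without it.

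Vascular endothelial growth factor A acts on endothelium mainly through the receptor tyrosine kinase encoded by Kdr, while the receptor encoded by Flt1 binds the same ligand tightly, signals weakly and has a soluble form that withholds ligand from Kdr. The junctions between endothelial cells are held by VE-cadherin (Cdh5), by the immunoglobulin family protein PECAM1, also found on platelets and leukocytes, and by the tight junction protein ESAM. PLVAP builds the diaphragms across the pores of fenestrated capillaries, a vessel type in which the pancreas is rich. EMCN is a sialomucin of the surface of capillary and venous endothelium that limits leukocyte adhesion. FABP4 carries fatty acids in capillary endothelium and in adipocytes.

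In the GRCm38 assembly with the GENCODE M21 annotation, Pecam1 lies on chromosome 11 (106654217-106750628, minus strand), Cdh5 on chromosome 8 (104101625-104144511, plus strand) and Plvap on chromosome 8 (71497765-71511752, minus strand). Kdr (75932827-75978458) and Flt1 (147561604-147726011) are on the minus strand of chromosome 5. Emcn (137341067-137432185, plus strand) and Fabp4 (10204088-10208576, minus strand) are on chromosome 3, and Esam (37528078-37538319, plus strand) is on chromosome 9. Counts were assigned to whole genes, so exons and isoforms, among them the soluble form of Flt1, were not told apart.

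RefSeq promoter windows were at hand for 3 of the 8 genes. They are shown because Kdr and Emcn had the largest differences from WT within the endothelial clusters, and Flt1 is the other receptor of the same family as Kdr. Each is the 250 bases before the start site, on the gene's own strand, in GRCm38 (chr3:137340828-137341077 for Emcn, chr5:75978456-75978705 for Kdr and chr5:147726012-147726261 for Flt1). Capitals mark AGGAAG and CCGGAA on either strand, hexamers that hold the GGAA core bound by ETS factors such as ERG and FLI1.
Emcn: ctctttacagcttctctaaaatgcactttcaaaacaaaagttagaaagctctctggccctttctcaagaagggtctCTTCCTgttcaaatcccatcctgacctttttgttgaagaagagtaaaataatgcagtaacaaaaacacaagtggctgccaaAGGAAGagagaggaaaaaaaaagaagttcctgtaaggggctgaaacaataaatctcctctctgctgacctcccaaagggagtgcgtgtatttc
Kdr: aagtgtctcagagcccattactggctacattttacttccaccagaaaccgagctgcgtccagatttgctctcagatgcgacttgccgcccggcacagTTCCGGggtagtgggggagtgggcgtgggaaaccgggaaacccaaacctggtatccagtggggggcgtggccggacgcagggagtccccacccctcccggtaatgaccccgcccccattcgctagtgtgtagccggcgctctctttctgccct
Flt1: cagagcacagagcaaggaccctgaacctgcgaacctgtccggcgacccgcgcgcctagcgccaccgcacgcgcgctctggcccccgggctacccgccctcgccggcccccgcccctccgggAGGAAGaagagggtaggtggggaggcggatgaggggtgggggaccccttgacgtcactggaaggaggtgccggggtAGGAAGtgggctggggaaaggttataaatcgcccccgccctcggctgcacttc
AGGAAG was found 2 times in the Emcn window, 2 times in the Flt1 window and 0 times in the Kdr window, which held CCGGAA 1 time. Of 32851 RefSeq promoter windows of the same length, 29.5% held AGGAAG and 12.03% held CCGGAA, so such matches were common and are descriptions of the letters alone. The Emcn window was the poorest in G and C (40.8%, against 61.6% for Kdr and 70.4% for Flt1).

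All 8 genes had their highest levels in the endothelial clusters of every group. The endothelial clusters held 11.9% and 12.5% of all UMIs of the WT libraries but 92.4% to 92.7% of the Pecam1 UMIs, 93.0% to 93.5% of those of Cdh5, 92.5% to 93.6% of those of Kdr and 95.5% to 96.0% of those of Flt1. The share was 93.8% to 95.1% for Emcn, 93.2% to 94.7% for Fabp4, 84.1% to 85.9% for Plvap and 86.9% to 87.5% for Esam. In the caerulein mice, whose endothelial clusters held 1.84% of all UMIs, the shares were between 71.3% (Fabp4) and 96.2% (Emcn). In the i4F mice, whose endothelial clusters held 0.728% to 4.97% of all UMIs, the shares were 39.01% to 89.9% for Kdr and 32.9% to 81.9% for Fabp4, with the lowest value in i4F 1 and the highest in i4F 3 for both genes. The other genes varied less, with 85.05% to 94.05% for Cdh5, 85.33% to 94.73% for Flt1 and 87.71% to 92.05% for Emcn. Pecam1 was at 62.12% to 75.65%, Plvap at 72.74% to 80.25% and Esam at 64.85% to 79.31%.

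**Figure D1:**
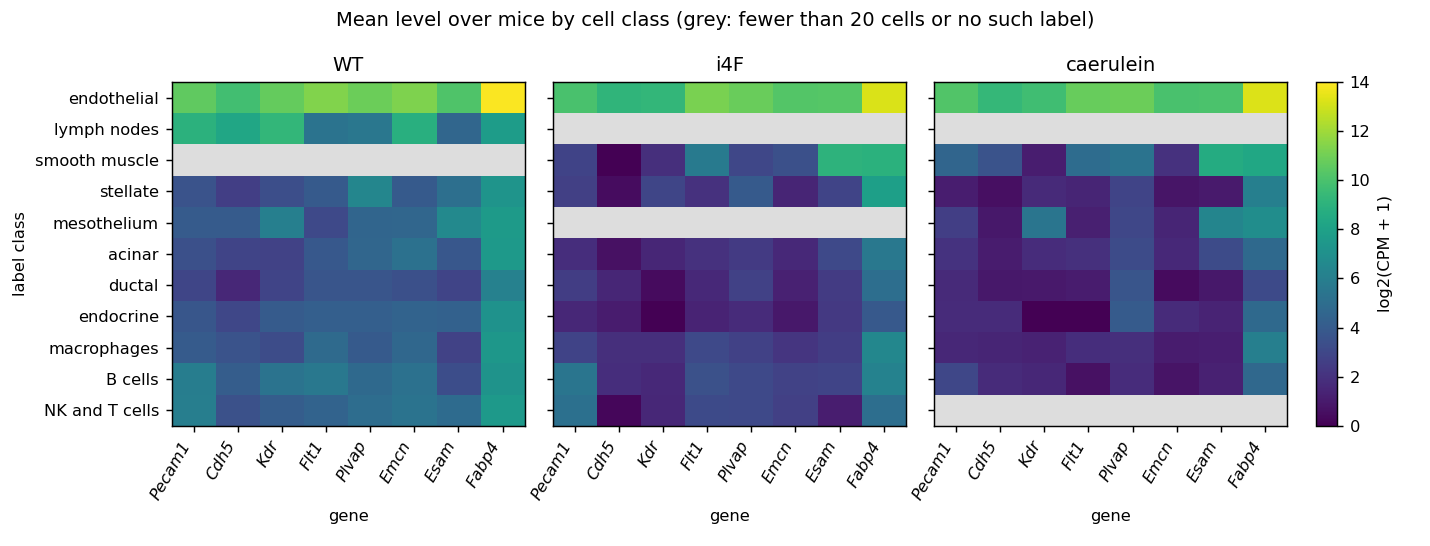
Mean level of each gene over the mice of a group, as log2(CPM + 1) of the UMIs summed over a class of cell labels, in WT, i4F and caerulein mice, with grey for classes without a label or with fewer than 20 cells. The endothelial row is the brightest in each panel, the Lymph_nodes row of WT is bright for Pecam1, Cdh5, Kdr and Emcn, and Esam stays visible in smooth muscle.

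Within WT, the genes did not all follow the split of the endothelium. Kdr was at 1817 and 1870 CPM in Endothelial_1 and at 336 and 687 CPM in Endothelial_2 of WT 1 and WT 2, and Flt1 was at 3227 and 2678 CPM against 694 and 934 CPM. Fabp4 was at 14370 and 17020 CPM in Endothelial_1 and at 15140 and 13620 CPM in Endothelial_2, without a common direction in the 2 mice. The 2 clusters also differed in depth, with a median of 3528 and 2016 UMIs per cell in Endothelial_1 and of 324 and 315 UMIs per cell in Endothelial_2. The cells were clustered on these genes among others, so these are descriptions of the clusters.

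The WT cluster named Lymph_nodes carried the genes of lymphatic endothelium: Ccl21a was at 37600 and 42920 CPM and Lyve1, a hyaluronan receptor of lymphatic vessels, at 6178 and 4921 CPM. It kept Pecam1 (598 and 427 CPM), Cdh5 (385 and 251 CPM), Kdr (658 and 591 CPM) and Emcn (368 and 547 CPM). The other 4 genes were low there, with Flt1 at 34.2 and 44.0 CPM, Plvap at 17.1 and 119 CPM, Esam at 42.7 and 12.6 CPM and Fabp4 at 154 and 289 CPM.

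Outside endothelium, Esam was highest in clusters of contractile cells. It was at 317 to 659 CPM in the clusters labelled Smooth_muscle of the 5 i4F and caerulein mice and at 461 and 501 CPM in the WT cluster Activated_Pancreatic_Stellate. That WT cluster held Acta2, the smooth muscle actin, at 20110 and 16760 CPM, and Rgs5, a pericyte gene, at 4792 and 3620 CPM, beside 10340 to 16230 CPM of Acta2 and 1777 to 4298 CPM of Rgs5 in the clusters labelled Smooth_muscle. In the cluster Activated_Pancreatic_Stellate_1 of the caerulein mice, Esam was at 1.04 and 1.07 CPM. Fabp4 was at 305 to 848 CPM in Smooth_muscle, but it had no single site outside endothelium: in i4F 2 the stellate clusters were at 362 CPM, above Smooth_muscle (305 CPM), and in WT 2 the macrophages were at 361 CPM. The stellate clusters of i4F 1 and i4F 2 held 6763 of 12419 and 8373 of 14377 Fabp4 UMIs, more than the endothelial clusters (4091 and 5246). The lowest level of Fabp4 was 2.46 CPM, in the ductal cells of caerulein 2.

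Kdr was also found in the mesothelium, the sheet of cells that covers the organ, at 67.4 and 62.5 CPM in WT and 20.9 and 88.0 CPM in caerulein mice. The i4F cluster Activated_Pancreatic_Stellate_2 held Kdr at 83.9 CPM in i4F 1 and 82.1 CPM in i4F 2 but at 9.57 CPM in i4F 3, where the cluster had 1167 cells against 144 and 126. Esam had the same split in that cluster, with 106.5, 107.6 and 15.8 CPM. The stellate and pericyte gene Pdgfrb went the other way there, at 7.52, 9.12 and 84.5 CPM. It was at 7.82 to 13.5 CPM in the mesothelium and at 53.6 to 57.3 CPM in Activated_Pancreatic_Stellate_1 of i4F mice. Col1a1 was alike in the cluster, at 636, 646 and 612 CPM. The label may thus hold unlike cells in these mice, and whether its cells are stellate cells was not tested. Pecam1 reached 93.1 CPM in the NK and T cells of WT 1 and was between 5.52 and 83.4 CPM in B cells. Plvap was at 105 and 120 CPM in the WT cluster Quiescent_Pancreatic_Stellate_1. In macrophages, Pecam1, Cdh5, Kdr, Flt1, Plvap, Emcn and Esam were each at 33.8 CPM or lower.

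Most cells with an endothelial label held UMIs of several of the 8 genes. The mean number of the 8 genes with a UMI per endothelial cell was 4.69 and 6.11 in WT, 4.45, 4.66 and 4.49 in i4F and 5.72 and 5.56 in caerulein mice, and 0.714% to 4.82% of the cells had a UMI of none. Depth differed between the mice, with medians of 601 to 1483 UMIs per endothelial cell, so each cell was also thinned to 1000 UMIs, which left out 34.6% to 58.4% of the endothelial cells of a mouse as too shallow. At that depth the mean number of genes was 6.25 and 6.37 in WT, 5.17, 5.37 and 5.48 in i4F and 5.05 and 5.79 in caerulein mice. The groups WT and i4F, and WT and caerulein, did not overlap in this measure, which was not tested.

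At the matched depth, Kdr had a UMI in 70.8% and 78.6% of WT endothelial cells, in 37.0%, 45.5% and 52.8% of i4F cells and in 48.6% and 57.6% of caerulein cells. Emcn had a UMI in 88.4% and 88.2% of WT cells, in 68.8%, 62.1% and 66.2% of i4F cells and in 55.9% and 66.4% of caerulein cells. Without thinning, Kdr had a UMI in 44.0% and 71.8% of WT cells, in 34.4%, 38.9% and 39.8% of i4F cells and in 60.7% and 59.8% of caerulein cells, so that the caerulein mice lay within the WT range and below it only after thinning. Emcn without thinning was found in 67.6% and 82.7% of WT cells, in 56.3%, 52.1% and 53.6% of i4F cells and in 63.8% and 65.2% of caerulein cells, below WT in every treated mouse. Thinning left out 635 of 690 and 324 of 361 cells of Endothelial_2 in WT 1 and WT 2, the cluster of low Kdr, but 16 of 432 and 96 of 851 cells of Endothelial_1. For Esam the WT mice (68.1% and 66.0%) lay within the range of the i4F mice (63.1% to 69.3%). Fabp4 was found in most thinned endothelial cells of every mouse, in 98.6% and 99.2% in WT, 91.9%, 93.5% and 90.5% in i4F and 93.6% and 95.6% in caerulein mice. Every treated mouse was thus below WT.

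Acinar and B cells, which should lack most of these transcripts, were taken as background. Free RNA in droplets and droplets with more than 1 cell were not told apart there, and in the B cells of WT 1 all 13 Kdr UMIs came from 1 cell and the 19 Flt1 UMIs from 3 cells. Before thinning, 0.141% to 3.18% of acinar cells had a UMI of a gene other than Fabp4, at medians of 431 to 2214 UMIs per cell, and 2.19% to 12.5% had a UMI of Fabp4. This background was not even across the groups. Emcn was found in 2.93% and 3.05% of acinar cells in WT and in 0.274% to 0.778% in treated mice. Before thinning Esam went the other way, with 0.938% and 1.20% in WT and 1.27% to 2.86% in treated mice. The acinar cells of WT were shallower, at medians of 431 and 502 UMIs against 606 to 2214 in treated mice. At the matched depth this order of Esam was gone. It was found in 0.596% and 1.14% in WT, 0.735%, 0.221% and 0.481% in i4F and 0.697% and 0.691% in caerulein mice. Emcn kept its order there, with 2.73% and 2.49% in WT and 0.120% to 0.462% in treated mice. In B cells Pecam1 was found in 23.4% and 9.91% of the cells of WT 1 (47 cells) and WT 2 (111 cells) and in 1.26% to 7.88% of those of the other mice, at medians of 480.5 to 2886 UMIs per cell. B cells and other leukocytes are known to carry PECAM1. Fabp4 was found before thinning in at most 16.2% of the B cells of a mouse (WT 2). The other genes were found in at most 6.38% (Cdh5 and Flt1 in WT 1).

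**Figure D2:**
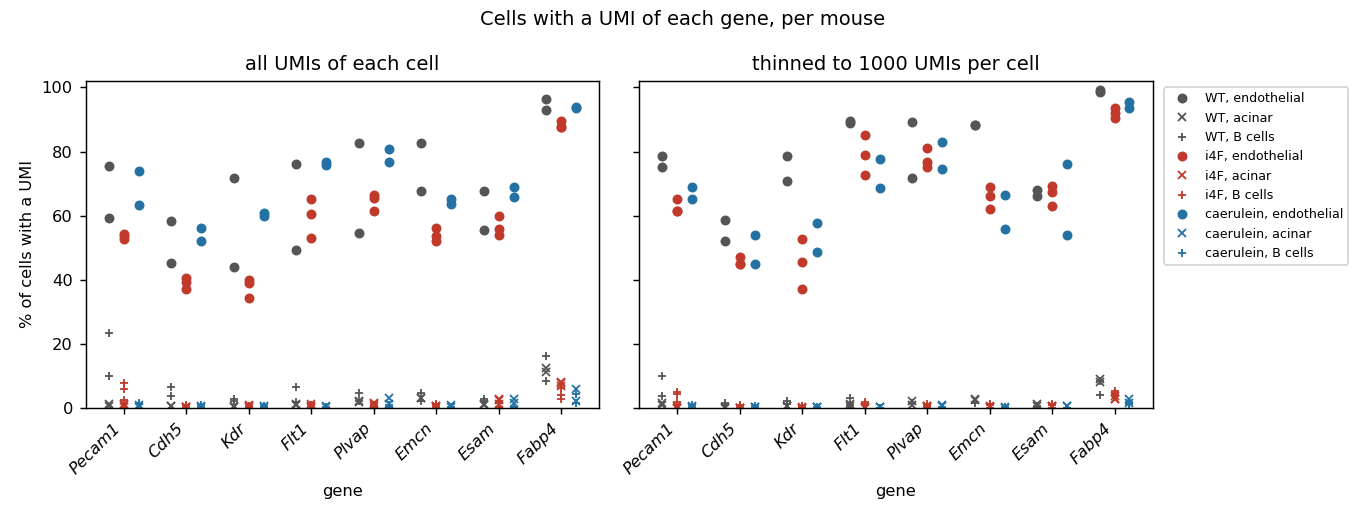
Percent of cells with at least 1 UMI of each gene, 1 point per mouse, with all UMIs (left) and after thinning each cell to 1000 UMIs (right). Circles are endothelial, crosses acinar and plus signs B cells; after thinning the WT circles for Kdr (70.8% and 78.6%) and Emcn lie above those of i4F and caerulein mice.

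To compare levels within the recovered endothelial cells, UMIs were summed over the endothelial clusters of each mouse and compared with edgeR's quasi-likelihood test across 8152 genes, with Benjamini-Hochberg adjustment over all of them. The receptor Kdr was at 1552 and 1768 CPM in WT, at 447, 654 and 800 CPM in i4F and at 623 and 1114 CPM in caerulein mice. Every treated mouse lay below both WT mice. The log2 fold change was -1.31 ± 0.32 (SE) in i4F against WT (adjusted p = 0.0989) and -0.88 ± 0.36 in caerulein against WT (adjusted p = 0.218).

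Flt1, the other receptor, was at 2774 and 2529 CPM in WT, at 1677, 2598 and 2875 CPM in i4F and at 1405 and 2092 CPM in caerulein mice. The i4F mice covered the WT range, and the caerulein mice lay below it. The log2 fold changes were -0.07 ± 0.29 (adjusted p = 0.929) and -0.52 ± 0.32 (adjusted p = 0.405). Whether Kdr and Flt1 differed in their response was not tested.

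Emcn had the smallest adjusted p of the 8 genes in both comparisons. It was at 2575 and 2496 CPM in WT, at 1327, 1109 and 1236 CPM in i4F and at 875 and 1193 CPM in caerulein mice. The highest treated mouse was at 1327 CPM and the lowest WT mouse at 2496 CPM. In caerulein mice it fell by 1.22 ± 0.25 on the log2 scale and passed the threshold (edgeR adjusted p = 0.0298). In i4F mice the log2 fold change was -0.97 ± 0.22 (adjusted p = 0.0808).

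Of the junction genes, Pecam1 was at 1611 and 1438 CPM in WT, at 889, 1025 and 1091 CPM in i4F and at 1048 and 1282 CPM in caerulein mice, again without overlap with WT. Its log2 fold changes were -0.52 ± 0.22 (adjusted p = 0.263) and -0.30 ± 0.25 (adjusted p = 0.531). Cdh5 was at 961 and 757 CPM in WT, at 581, 566 and 596 CPM in i4F and at 511 and 794 CPM in caerulein mice. The i4F mice were below WT and close to each other, whereas caerulein 2 lay within the WT range, and the log2 fold changes were -0.48 ± 0.23 and -0.32 ± 0.26. Esam was at 1193 and 1081 CPM in WT, at 1164, 1349 and 1281 CPM in i4F and at 777 and 1371 CPM in caerulein mice, which overlapped in both comparisons (log2 fold changes 0.23 ± 0.26 and -0.01 ± 0.28).

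Plvap, the diaphragm gene, was at 1354 and 2620 CPM in WT, at 1702, 1819 and 1866 CPM in i4F and at 1603 and 2184 CPM in caerulein mice. All treated mice fell between the WT mice, and the sign of its small difference (-0.09 ± 0.32 and -0.01 ± 0.35) depended on which WT mouse was kept. Without WT 2 it was 0.50 in i4F and 0.55 in caerulein mice. Fabp4 was at 14510 and 16730 CPM in WT, at 9282, 9130 and 10190 CPM in i4F and at 8718 and 10980 CPM in caerulein mice. It was lower in every treated mouse, with log2 fold changes of -0.64 ± 0.23 (adjusted p = 0.205) and -0.59 ± 0.26 (adjusted p = 0.243).

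**Figure D3:**
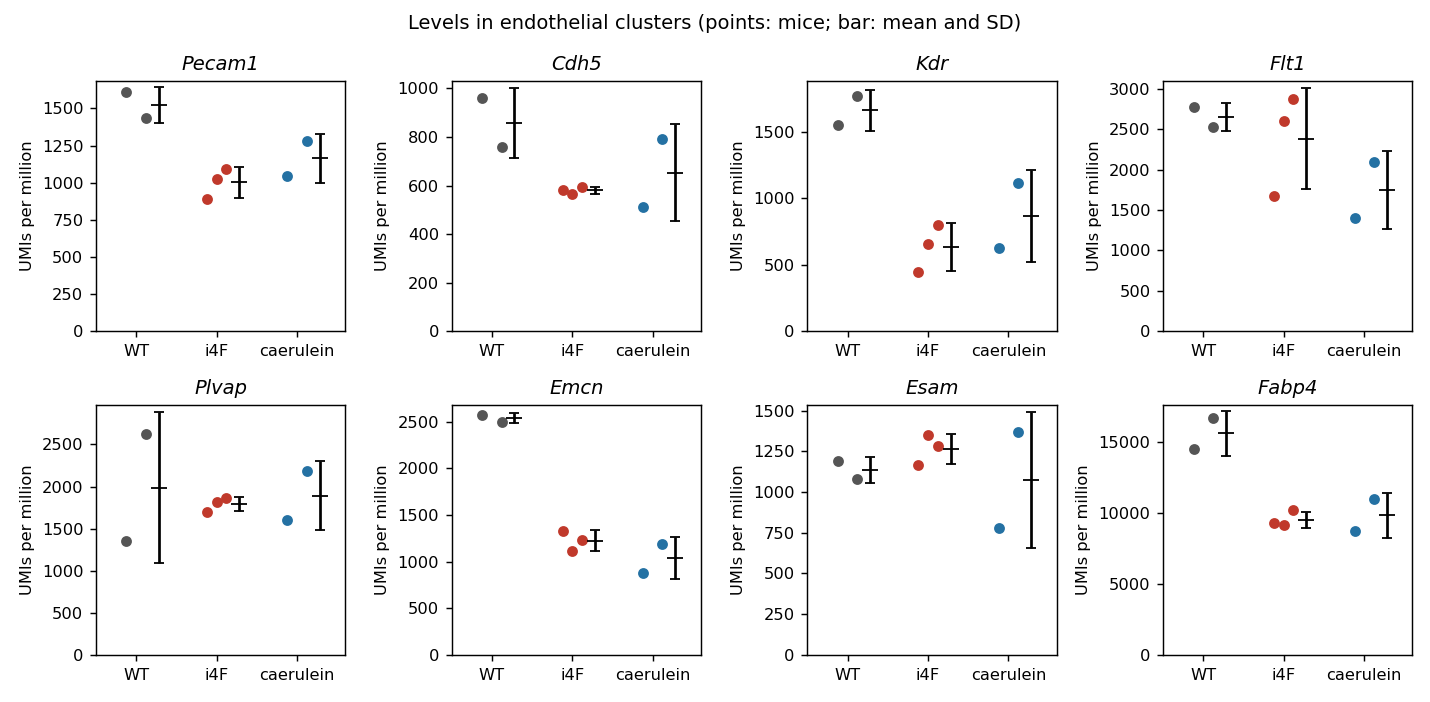
Level of each gene in the endothelial clusters, in CPM, 1 point per mouse for WT, i4F and caerulein, with the mean and SD of the group beside the points. Pecam1, Kdr, Emcn and Fabp4 of every treated mouse lie below both WT mice, while Plvap, Esam and the i4F values of Flt1 overlap WT. Of all genes, 21.9% had every i4F mouse below every WT mouse and 31.5% every caerulein mouse.

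Counted over the 8 genes, 0 passed the edgeR threshold in i4F against WT, where 0.810% of all genes tested did. At an unadjusted p under 0.05 the count was 4 (Pecam1, Kdr, Emcn and Fabp4; 18.2% of all genes), and DESeq2 called 2 (Kdr and Emcn; 3.58% of all genes). The median log2 fold change was -0.50 over the 8 genes and 0.02 over all genes. Every i4F mouse lay below every WT mouse for 5 of the 8 genes, beside 21.9% of all genes, and every caerulein mouse for 5 of 8, beside 31.5%. In caerulein against WT 1 passed, Emcn, beside 4.10% of all genes, with a median of -0.42 over the 8 and 0.00 over all genes. The 2 comparisons share the WT mice. Between i4F and caerulein mice 0 passed with edgeR (0.601% of all genes), 0 with an unadjusted p under 0.05 (10.03%) and 0 with DESeq2 (1.45%), and the log2 differences ran from -0.43 ± 0.33 for Kdr to 0.46 ± 0.30 for Flt1.

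The call of Emcn in caerulein mice was lost without any 1 of WT 1, WT 2, i4F 1, i4F 2, caerulein 1 or caerulein 2 (log2 fold changes from -1.10 to -1.42, edgeR adjusted p from 0.0505 to 0.344) and held without i4F 3 (adjusted p = 0.00966). With the library code as a term in the fit, the caerulein mice are set against WT 2 alone, much as without WT 1. The call of Emcn was lost there too (-1.26). It was also lost with cells chosen by a gate of endothelial genes in place of the labels (-1.23, edgeR adjusted p = 0.157). Without i4F 3, Kdr and Emcn passed in i4F against WT (log2 fold changes -1.56 and -1.02, adjusted p = 0.0141 and 0.0204), beside 14.3% of all genes.

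Other cells' transcripts moved with the groups in the same sums. The 10 immune markers summed to 34.4 and 67.0 CPM in the WT endothelial clusters, 250 to 955 CPM in i4F and 7262 and 5050 CPM in caerulein mice, and 9 of the 10 were testable. Of these, 7 rose in caerulein mice, among them Lyz2 (log2 fold change 7.30 ± 0.81, adjusted p = 0.00266) and the complement gene C1qa (7.27 ± 0.77), and 3 rose in i4F mice, with C1qb at 3.90 ± 0.63 and C1qa at 3.77 ± 0.68. The neutrophil gene S100a9 had 0 UMIs in both WT mice and was at least 44.5-fold higher in i4F and at least 45.9-fold higher in caerulein mice, against a floor of 3 UMIs per WT library. The calls of C1qa, C1qb and S100a9 in i4F mice were lost without any 1 of WT 1, WT 2, i4F 1, i4F 2, caerulein 1 or caerulein 2 (edgeR adjusted p from 0.0507 to 0.241), and that of S100a9 in caerulein mice without WT 1 or caerulein 1 (adjusted p = 0.0575 and 0.236). Without i4F 3, in which the immune markers summed to 250 CPM against 955 and 947 CPM in i4F 1 and i4F 2, C1qa was at 4.14, C1qb at 4.30 and the call of S100a9 held (adjusted p from 0.00162 to 0.00449 for the 3 genes). With DESeq2, 9 of the 9 were called in i4F and 8 of 9 in caerulein mice. Of all genes, edgeR called 0.810% in i4F and 4.10% in caerulein mice and DESeq2 3.58% and 5.36%. Against caerulein, i4F mice had less Lyz2 (-3.76 ± 0.58), Cd68 (-3.53 ± 0.55) and C1qa (-3.49 ± 0.55), and these 3 calls were lost without any 1 of i4F 1, i4F 2, caerulein 1 or caerulein 2 (adjusted p from 0.0522 to 0.489). Without i4F 3 they were at -3.31, -3.00 and -3.13 (adjusted p from 0.0154 to 0.0353). When endothelial cells with a UMI of an immune marker were left out (2.41% and 7.01% of the cells in WT, 15.4% to 39.9% in i4F, 16.3% and 48.4% in caerulein mice), Emcn was at -0.97 in caerulein against WT (edgeR adjusted p = 0.185) and at -0.91 in i4F (adjusted p = 0.113). Without cells marked as doublets by Scrublet its value in caerulein mice was -1.07 (adjusted p = 0.0641). The part of these transcripts in the differences of the 8 genes was not tested.

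Lymphatic markers also moved. They summed to 92.1 and 86.1 CPM in the WT endothelial clusters, 748 to 2136 CPM in i4F and 1056 and 873 CPM in caerulein mice, and 4 of 6 testable markers rose in each comparison with WT, beside 0.810% of all genes in i4F and 4.10% in caerulein mice. Lyve1 rose by 6.92 ± 0.44 in i4F and 5.86 ± 0.44 in caerulein mice, and Ccl21a by 6.04 ± 0.86 and 5.46 ± 0.86. Reln, which had 0 UMIs in the WT endothelial clusters, was at least 38.7-fold higher in i4F and at least 12.8-fold higher in caerulein mice. The call of Ccl21a was lost without WT 1 or i4F 1 in i4F mice (edgeR adjusted p = 0.135 and 0.0905) and without WT 1 or caerulein 1 in caerulein mice (0.0606 and 0.107), and that of Reln in caerulein mice without caerulein 1 (0.0537). Without i4F 3, Lyve1 was at 6.76 and Ccl21a at 5.36 in i4F mice and the calls of Lyve1, Ccl21a and Reln held (adjusted p from 0.000538 to 0.00322). With the WT cluster Lymph_nodes added to the WT endothelium these differences were gone or of the other sign: Lyve1 was at -0.06 and -1.13, Ccl21a at -1.18 and -1.78. Without cells holding at least 2 lymphatic genes (0.267% to 4.37% of the endothelial cells of a mouse), Emcn was at -0.93 in i4F and -1.22 in caerulein mice (edgeR adjusted p = 0.111 and 0.0341) and Kdr at -1.29 and -0.89.

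Of the other marker lists, the stellate and pericyte genes summed to 388 and 665 CPM in WT and 1062, 211 and 310 CPM in i4F. In caerulein mice they were at 1683 and 727 CPM, and 7 of 8 testable genes had a positive log2 fold change against WT (median 2.11). With edgeR 0 of the 8 were called there (5 at an unadjusted p under 0.05 and 1 by DESeq2, beside 19.96% and 5.36% of all genes). In i4F against WT edgeR called 1 (4 at an unadjusted p under 0.05 and 1 by DESeq2, beside 0.810%, 18.2% and 3.58% of all genes). Rgs5 fell in i4F mice against WT (-3.36 ± 0.39, edgeR adjusted p = 0.0151) and was lower than in caerulein mice (-3.47 ± 0.40). The first call was lost without i4F 2 (edgeR adjusted p = 0.0668) and the second without any 1 of i4F 1, i4F 2, caerulein 1 or caerulein 2 (0.0579 to 0.192). Without i4F 3, Rgs5 was at -3.91 against WT and -4.01 against caerulein (adjusted p = 0.00141 and 0.0143). Ductal markers summed to 330 and 109 CPM in WT, 526, 595 and 526 CPM in i4F and 1294 and 1317 CPM in caerulein mice, so every treated mouse was above WT. Of these, Spp1, which macrophages express too, rose by 3.91 ± 0.75 in caerulein mice (-0.23 without cells holding an immune marker), a call lost without WT 2, caerulein 1 or caerulein 2 (adjusted p = 0.0503 to 0.209). In i4F against WT edgeR called 0 of 4 testable ductal markers, with 2 at an unadjusted p under 0.05 and 1 by DESeq2 (18.2% and 3.58% of all genes). The part of ductal transcripts in the differences of the 8 genes was not tested. Platelet markers were at 18.3 and 32.9 CPM in WT, 27.3 to 124 CPM in i4F and 1929 and 990 CPM in caerulein mice, and the only testable one, Pf4, was higher in caerulein mice than in WT (7.01 ± 0.84) and than in i4F (-4.27 ± 0.63 in i4F against caerulein). In i4F against WT Pf4 was at 2.74. There it was not called by edgeR, had an unadjusted p under 0.05 and was called by DESeq2 (18.2% and 3.58% of all genes). Without cells holding an immune marker Pf4 was at 3.53 in caerulein against WT (edgeR adjusted p = 0.181), and its call between i4F and caerulein was lost without any 1 of i4F 1, i4F 2, caerulein 1 or caerulein 2 (0.0724 to 0.452) and held without i4F 3 (-3.78, adjusted p = 0.0154). Of the 15 acinar markers only Amy2a5 was analysed here, at 0 to 341 CPM, and both measured adipocyte markers were at or near 0, at 2.602 CPM in sum or lower.

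Over all cells of a library, the 8 genes were lower in each treated mouse than in both WT mice. Of all 18264 genes tested, 41.8% had every i4F mouse below every WT mouse and 52.3% every caerulein mouse. Pecam1 was at 217 and 185 CPM in WT, at 10.4, 21.01 and 71.7 CPM in i4F and at 21.9 and 25.4 CPM in caerulein mice. Kdr was at 207 and 228 CPM in WT, at 8.34, 13.6 and 44.2 CPM in i4F and at 14.3 and 22.9 CPM in caerulein mice. Emcn was at 337 and 318 CPM in WT, at 11.02, 18.3 and 67.1 CPM in i4F and at 17.4 and 22.9 CPM in caerulein mice. In each gene i4F 3 was the highest of the i4F mice, and the groups did not overlap with WT.

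The remaining genes had the same order of mice within the i4F group. Cdh5 was at 128 and 97.2 CPM in WT, at 4.97, 9.43 and 31.5 CPM in i4F and at 10.7 and 15.6 CPM in caerulein mice. Flt1 was at 360 and 316 CPM in WT, at 14.3, 43.0 and 151 CPM in i4F and at 27.95 and 40.8 CPM in caerulein mice. Plvap was at 201 and 364 CPM in WT, at 17.0, 34.7 and 116 CPM in i4F and at 35.0 and 46.0 CPM in caerulein mice. All of these treated values lay below both WT mice. Esam was at 170 and 148 CPM in WT, at 13.1, 27.9 and 80.3 CPM in i4F and at 19.9 and 29.7 CPM in caerulein mice. Fabp4 was at 1908 and 2142 CPM in WT, at 205, 381 and 618 CPM in i4F and at 225 and 254 CPM in caerulein mice.

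The share of endothelial cells moved along with these levels. Endothelial labels covered 25.9% (95% exact binomial interval 24.6% to 27.3%) and 19.2% (18.2% to 20.15%) of all cells in WT 1 and WT 2, 3.17%, 5.44% and 8.72% of those of the i4F mice and 3.70% and 3.92% of those of the caerulein mice. The means were 22.5% ± 4.79 (SD, n = 2), 5.78% ± 2.79 (n = 3) and 3.81% ± 0.157 (n = 2). The differences from WT were -16.8 points in i4F (exact two-sided permutation test, p = 0.2) and -18.7 points in caerulein mice (exact p = 0.333), and these are the smallest p-values that 3 against 2 and 2 against 2 mice allow. As a share of non-immune cells the values were 27.3% and 21.7% in WT, 5.51%, 10.52% and 13.9% in i4F and 8.58% and 7.25% in caerulein mice, still without overlap. The UMIs per cell differed too, with medians per non-immune cell of 2574.5 and 2915 in WT, 8833, 6280 and 1295.5 in i4F and 5883 and 2704 in caerulein mice. In sums over all cells, fewer endothelial cells, less RNA of a gene per endothelial cell and other UMI totals of the remaining cells cannot be told apart.

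**Figure D4:**
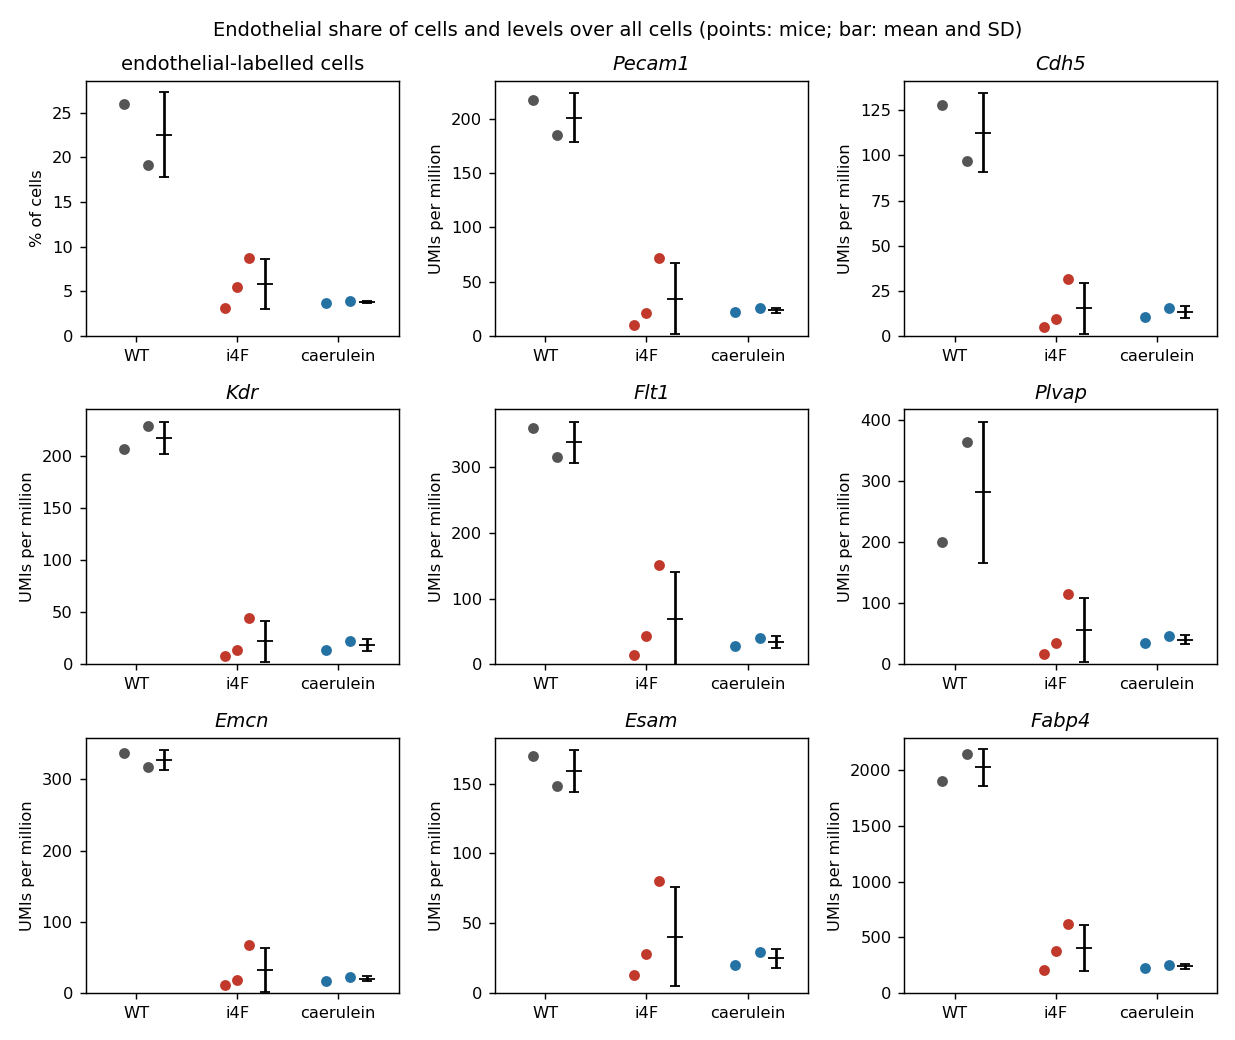
Percent of cells with an endothelial label (upper left) and the level of each gene over all cells of a library in CPM, 1 point per mouse, with the mean and SD of each group. In every panel the 5 treated mice lie below the 2 WT mice, an order that 41.8% (i4F) and 52.3% (caerulein) of all genes also had, and i4F 3 is the highest i4F mouse.

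In the edgeR fit over all cells (18264 genes), the log2 fold changes in i4F against WT ran from -1.60 ± 0.66 for Esam to -2.98 ± 0.71 for Emcn, with Kdr at -2.94 ± 0.66. The count past the threshold was 0 of 8 genes, as it was for all genes (0.00%). At an unadjusted p under 0.05 it was 7 of 8 (34.7% of all genes), and DESeq2 called 6 of 8 (23.6%). Without i4F 3, 8 of 8 passed the edgeR threshold, beside 49.7% of all genes. The log2 fold changes in i4F depended on the mice kept. With 1 mouse left out they ran from -2.579 to -1.175 for Esam, -4.101 to -2.559 for Emcn and -3.935 to -2.539 for Kdr. In caerulein against WT the changes ran from -2.31 ± 0.77 for Esam to -3.64 ± 0.85 for Emcn. Emcn and Fabp4 (-2.70 ± 0.50) fell, with adjusted p = 0.048 and 0.0387, beside 9.58% of all genes. Without i4F 3, all 8 passed beside 46.6% of all genes, and without i4F 1 3 passed beside 5.77%. Without any 1 of WT 1, WT 2, i4F 2, caerulein 1 or caerulein 2, 0 passed beside 0.00% of all genes, and among non-immune cells alone 0 passed beside 0.349%. Between i4F and caerulein 0 of 8 passed with edgeR (0.00%), 0 at an unadjusted p under 0.05 (14.2%) and 0 with DESeq2 (5.17%). The median over the 8 genes was -2.08 in i4F and -2.71 in caerulein against WT, beside 0.04 and -0.06 over all genes.

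Macrophages, which are not endothelium, served as a measure of what these comparisons give outside it. They are all clusters whose label begins with Macrophages. These clusters were made and named separately in each group, so the cells pooled may differ in kind between groups. Emcn was at 24.6 and 23.7 CPM in WT macrophages, at 1.78, 2.81 and 7.74 CPM in i4F and at 0.996 and 1.16 CPM in caerulein macrophages. The WT macrophages were above those of every treated mouse. Flt1 was at 33.8 and 22.4 CPM in WT, at 3.56, 6.39 and 17.4 CPM in i4F and at 2.49 and 2.71 CPM in caerulein macrophages. Fabp4, which macrophages can express, was at 78.4 and 361 CPM in WT, at 107.5, 60.1 and 103 CPM in i4F and at 70.4 and 59.6 CPM in caerulein macrophages, where one WT mouse was far above the rest.

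In caerulein against WT 3 of the 8 genes fell in macrophages, Emcn (-4.42 ± 0.63, edgeR adjusted p = 0.0324), Flt1 (-3.33 ± 0.68, 0.0417) and Cdh5 (-2.62 ± 0.55, 0.0421), beside 5.70% of all genes. These falls start from few UMIs in WT 1 and WT 2: 16 and 35 of Emcn, 22 and 33 of Flt1 and 7 and 17 of Cdh5. WT 1 had 104 macrophages. Macrophages with UMIs of at least 2 genes of the endothelial gate, none of them among the 8, were left out in an alternative. It kept 101 of 104 macrophages in WT 1 and 508 of 514 in WT 2, and cells with a UMI of 1 such gene stayed in. There 1 passed (4.64% of all genes). Without WT 1, WT 2, i4F 1, caerulein 1 or caerulein 2, 0 passed (0.00% to 0.633% of all genes), and without i4F 2 1 passed (1.57%), whereas without i4F 3 6 passed (16.5%). In i4F against WT 0 passed with edgeR (0.00829% of all genes), 4 had an unadjusted p under 0.05 (19.9%) and DESeq2 called 2 (4.39%). Between i4F and caerulein macrophages 0 passed (1.67%), with 3 at an unadjusted p under 0.05 (22.2%) and 0 by DESeq2 (8.95%). The levels of the 8 genes over all cells moved in the same direction, and the part of free RNA or of droplets with more than 1 cell in the macrophage values was not tested.

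**Figure D5:**
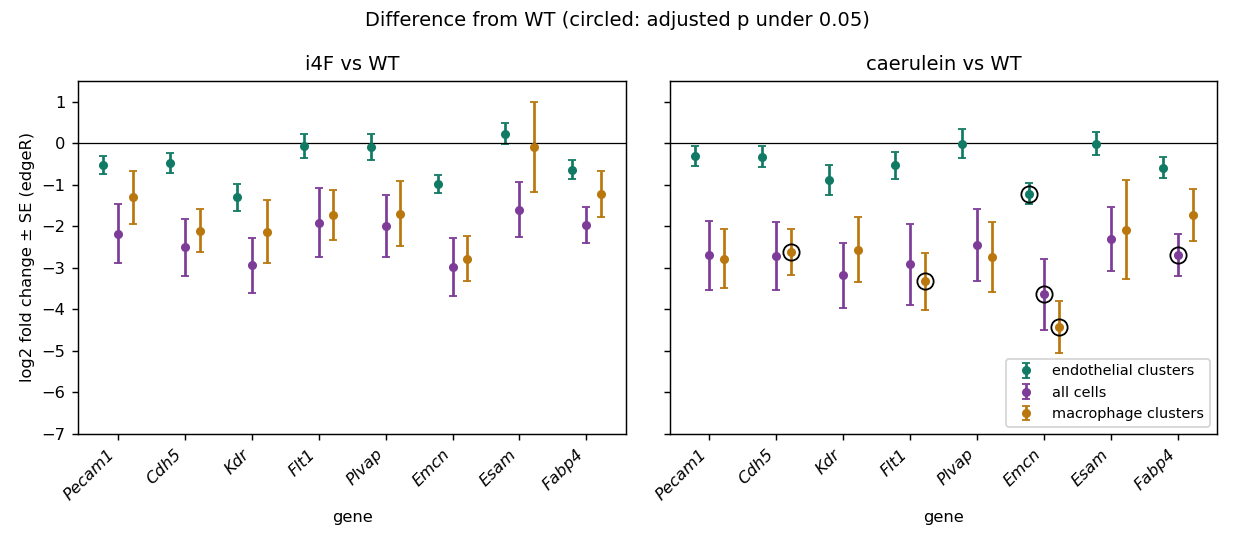
Log2 fold change against WT from edgeR, with an SE derived from its F statistic, for each gene in the endothelial clusters, in all cells and in macrophages. The left panel is i4F and the right caerulein, with circles around values whose adjusted p is under 0.05. In both panels every gene lies lower over all cells than in the endothelial clusters, where the values run from -1.31 to 0.23 and from -1.22 to -0.01.

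The other genes of endothelium, from lists on vessel growth, junctions, transcription factors and vessel types, had few members past the threshold. Among 15 further pan-endothelial genes 1 fell in i4F mice, Clec14a, a lectin of the endothelial surface (log2 fold change -1.98 ± 0.33, edgeR adjusted p = 0.0361), beside 0.810% of all genes, and 0 in caerulein mice, beside 4.10%. At an unadjusted p under 0.05 the counts were 6 in i4F and 4 in caerulein mice, and DESeq2 called 1 in each. The list had a median of -0.33 in i4F mice. Clec14a was at 552 and 582 CPM in WT, at 90.8, 124 and 187 CPM in i4F and at 189 and 251 CPM in caerulein mice. All 5 treated mice were below WT, which for the i4F mice was a condition of naming the gene. In caerulein mice 31.5% of all genes had that order. Of 12 partner receptors of vessel growth 0 passed with edgeR in either comparison with WT, while 4 in i4F and 3 in caerulein mice had an unadjusted p under 0.05 and DESeq2 called 0 and 1. Over all genes these shares were 18.2% and 19.96% at an unadjusted p under 0.05 and 3.58% and 5.36% with DESeq2. Nrp1, a co-receptor of Kdr that was named after its values were seen, was at 1090 and 1224 CPM in WT, at 354, 468 and 688 CPM in i4F and at 319 and 514 CPM in caerulein mice (-1.11 ± 0.33 in i4F, adjusted p = 0.146).

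Among 9 testable junction and caveola genes Cav2, a component of caveolae, fell in caerulein mice (-1.84 ± 0.41, edgeR adjusted p = 0.0425), with 261 and 169 CPM in WT and 57.9 and 50.8 CPM in caerulein mice, and 0 passed in i4F mice. At an unadjusted p under 0.05 the counts were 4 in i4F and 3 in caerulein mice, and DESeq2 called 2 in each. Over all genes the shares were 18.2% and 19.96% at an unadjusted p under 0.05 and 3.58% and 5.36% with DESeq2, here and for the next list. Of 9 testable venous and adhesion genes 1 rose in each comparison with WT, and it was the same gene: Lrg1, a secreted glycoprotein known from venules, was at 147 and 61.3 CPM in WT, at 1978, 2445 and 592 CPM in i4F and at 1492 and 1238 CPM in caerulein mice (4.08 ± 0.63 with adjusted p = 0.0341, and 3.84 ± 0.64 with adjusted p = 0.0128). In that list 3 genes had an unadjusted p under 0.05 in each comparison and DESeq2 called 1 in each, and the median was 1.04 in i4F and 0.52 in caerulein mice. The edgeR calls of these lists stand beside 0.810% of all genes in i4F and 4.10% in caerulein mice. The calls of Clec14a and Lrg1 in i4F were lost without any 1 of WT 1, WT 2, i4F 1, i4F 2, caerulein 1 or caerulein 2 (Clec14a from -1.75 to -2.09, adjusted p from 0.0631 to 0.173; Lrg1 from 3.56 to 4.74, adjusted p from 0.0631 to 0.106). Without i4F 3 both held, with Clec14a at -2.36 and Lrg1 at 4.47 (adjusted p = 0.00162 and 0.00119). The call of Lrg1 in caerulein mice was lost without WT 2 or caerulein 1 (adjusted p = 0.0503 and 0.143), and that of Cav2 without WT 1, i4F 1, caerulein 1 or caerulein 2 (-1.59 to -2.09, adjusted p from 0.0642 to 0.356).

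The remaining vascular lists had 0 genes past the edgeR threshold in i4F or caerulein against WT, and their counts below stand beside the same shares of all genes (18.2% and 19.96% at an unadjusted p under 0.05, 3.58% and 5.36% with DESeq2). Of 12 transcription factors of endothelium, 2 in i4F and 1 in caerulein mice had an unadjusted p under 0.05, and DESeq2 called 0 in both. Of 11 capillary and lipid handling genes the counts were 3 and 4, with 1 and 2 by DESeq2, and of 8 testable arterial genes 2 and 0, with 0 and 0 by DESeq2. Of 11 testable sprouting and basement membrane genes they were 2 and 1, with 1 and 1 by DESeq2, and of 4 testable ligands of the vessel receptors 2 and 1, with 2 and 0 by DESeq2. Erg was at 149 and 150 CPM in WT, at 136, 150 and 134 CPM in i4F and at 114 and 105 CPM in caerulein mice. Gpihbp1, which anchors lipoprotein lipase on capillaries, was at 1644 and 2108 CPM in WT, at 1361, 1972 and 2352 CPM in i4F and at 1160 and 1701 CPM in caerulein mice. The lists were chosen with earlier results of these data known.

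Across the 92 sums of at least 20 cells of 1 label in 1 library, the genes most like the mean of the 8 in log2(CPM + 1) were Ptprb (Pearson's r = 0.932), Aqp1 (0.924), Tmem252 (0.910), Cyyr1 (0.908), Gpihbp1 (0.905), Adgrl4 (0.896), Adgrf5 (0.895), Robo4 (0.891), Sox7 (0.890) and Erg (0.884). Among the 8 genes themselves the lowest r was 0.634, between Cdh5 and Esam, and the highest 0.889, between Flt1 and Emcn. The sums share libraries and their free RNA, and the values are descriptions.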

How the data were processed

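Single-cell libraries (10x 3′ v3) were made from the pancreata of 7 mice. According to the submitters' processing notes and the study's methods, the authors aligned reads to mm10 with Cell Ranger, removed cells with fewer than 150 genes or over 5% mitochondrial UMIs, and clustered and named the cells of each group separately with Seurat. SoupX was used in the study, and whether the tables precede it is not given in the sources used here. The deposited count tables hold whole UMI counts per gene and cell, with no normalization, and the authors deposited the cell labels beside them.

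UMIs were summed per mouse over all cells, over the endothelial clusters and over macrophages. Each sum was tested with edgeR 4.0.16 (quasi-likelihood, TMM, filterByExpr, the 3 groups in 1 fit) over the genes listed in every table, with Benjamini-Hochberg adjustment and a threshold of 0.05. The SE beside an edgeR log2 fold change is its absolute value divided by the square root of the F statistic of the test. DESeq2 1.42.0 was an alternative. Scripts were tested on simulated data. Replicates are mice, and intervals on shares of cells cover counting error only. Shares of cells were compared by an exact two-sided permutation test. Labels with at least 20 cells in a library gave levels per label, and likeness used a pseudocount of 1 CPM. All 8 genes were named, with up to 3 called genes per list and direction whose groups did not overlap, and the 10 genes of highest likeness. The members and lists were chosen with earlier results of these data known. Doublets were left in and removed in an alternative. Of the 15 acinar markers, 14 were not analysed here. Promoters came from RefSeq.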

Additional observations from a re-analysis of the deposited data

How the results depend on the processing

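The endothelial share of cells was lower than in WT in each alternative run for it. The differences in i4F and caerulein mice were -13.2 and -14.8 points among cells with at least 500 genes, -16.7 and -18.9 without doublets, -16.7 and -18.8 without the highest doublet scores, -14.6 and -16.6 as a share of non-immune cells, and -20.1 to -13.4 and -22.1 to -15.4 points when 1 mouse was left out. The number of the 8 genes past the threshold did not hold, and neither did the share of all genes past it, which is given in brackets. In the endothelial clusters it rose from 0 to 2 in i4F against WT with DESeq2 (3.58%), without the filter on low counts (4.32%) and with the replicate block (9.92%; leave-one-out 0 to 2, with 2 and 14.3% without i4F 3). In caerulein against WT it fell from 1 to 0 with the library series as a term (1.34%), without doublets (2.03%), without the highest doublet scores (0.264%), with cells chosen by a gate of endothelial genes (1.33%) and without cells with an immune marker (0.00%; leave-one-out 0 to 1). Over all cells, i4F against WT went from 0 to 6 with DESeq2 (23.6%), 4 without TMM (13.6%) and 8 with the block (44.2%; leave-one-out 0 to 8, with 8 and 49.7% without i4F 3 and 0 and 0.00% without each other mouse). Caerulein against WT went from 2 to 8 with DESeq2 (29.8%), with only the 2 groups fitted (46.1%) or with the block (40.6%), 5 without TMM (16.2%), 1 without the filter (3.94%), and 0 with the series term (0.00%) or in non-immune cells (0.349%; leave-one-out 0 to 8). In macrophages, i4F against WT went from 0 to 2 with DESeq2 (4.39%), 6 without the filter (6.35%) and 4 with the block (6.86%; leave-one-out 0 to 6, with 6 and 11.97% without i4F 3). Caerulein against WT went from 3 to 6 with DESeq2 (13.7%) or 2 groups alone (14.5%) and to 8 without the filter (10.6%). It was 5 with the block (10.03%), 0 with the series term (0.647%) and 1 without cells holding at least 2 genes of the endothelial gate (4.64%; leave-one-out 0 to 6). Without the filter, i4F against caerulein macrophages went from 0 to 4 (7.64%). In the block i4F 3 alone held its replicate number, so the block is not separate from leaving out i4F 3. The series term sets each treated group against the 1 WT mouse that shares its code, so it is not separate from leaving out the other WT mouse. The cause of these changes was not tested. The alternatives on the highest doublet scores, immune markers, the cluster Endothelial_2 and cells of at least 1000 UMIs were chosen after seeing the data. Scrublet marked 2 of 4327 cells in WT 1 and 0 of 7614 in i4F 3, so it did not work there.

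Over all genes in the endothelial clusters, i4F against WT gave 66 calls. The count was 292 with DESeq2, 882 without the filter, 809 with the block, 110 without TMM, 139 without the WT cluster Endothelial_2 and 1223 without i4F 3, but 15 with the 2 groups alone, 10 by the endothelial gate, 18 with Lymph_nodes added, 33 without lymphatic cells, 29 without cells with an immune marker, 9 without any 1 of WT 1, i4F 1 or i4F 2, and 25 and 30 without caerulein 1 and 2. Caerulein against WT gave 334 calls. The count was 1209 without the filter, 809 with the 2 groups alone, 638 with the block and 943 without i4F 3, but 109 with the series term, 165 without doublets, 20 without the highest doublet scores, 107 by the gate, 0 of 6191 genes with edgeR without cells with an immune marker (872 at an unadjusted p under 0.05), 106 without WT 1, 203 without caerulein 2 and 22 without caerulein 1. Of the calls named for the other gene lists, 7 of 9 in i4F and 6 of 10 in caerulein mice against WT were lost without at least 1 mouse, as were 5 of 5 between i4F and caerulein. The labels give no link between mice with the same number beyond that number. Their deviations from the group means had correlations of -0.375 to 0.126. These cannot settle whether more was shared, since the deviations in a group of 2 mice are mirror images. With the block, Kdr and Emcn passed in i4F against WT (-1.58 and -1.02). Since i4F 3 alone held its number, the block took that mouse out of the group difference. The values were close to those without i4F 3 (-1.56 and -1.02).

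Small differences changed sign. In the endothelial clusters of i4F against WT, Plvap was at 0.55 with the series term and -0.54 to 0.50 with 1 mouse left out, and Flt1 ran from -0.27 to 0.15. In caerulein against WT, Plvap was at 0.055 with the block, 0.14 without doublets, 0.25 without the highest doublet scores, 0.049 with the WT cluster Lymph_nodes added, 0.26 without cells with an immune marker and -0.48 to 0.55 in leave-one-out, and Esam at 0.14 without doublets, 0.23 without the highest scores, 0.043 with Lymph_nodes, 0.28 without immune markers and -0.43 to 0.25. With Lymph_nodes added, Lyve1 was at -0.058 in i4F and -1.13 in caerulein mice, Ccl21a at -1.18 and -1.78 and Reln at -1.23 in caerulein mice. Ccl21a was at -6.08 without lymphatic cells, which were chosen by genes of that list, and Spp1 at -0.23 without immune markers in caerulein mice. In i4F against caerulein, Plvap was at 1.008 and Fabp4 at 0.29 with the series term, Fabp4 at 0.011 without lymphatic cells and Esam at -0.066 without immune markers. In leave-one-out these ran from -0.21 to 0.10 (Plvap), -0.14 to 0.069 (Fabp4) and -0.049 to 0.64 (Esam), and Cdh5 from -0.38 to 0.12.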
